A study of Arabidopsis thaliana with 4 samples.

Results

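AT1G30700, AT2G34810 and AT4G20860 encode oxidases of the berberine bridge enzyme-like family of Arabidopsis thaliana. They are 3 of the 3592 genes that single-gene probe sets name on the arrays, and 5 probe sets report them out of 8247 analysed. All probe sets that name exactly 1 of these loci were taken. The genes were chosen from their measured fall in signal between 4 h and 100 h, on these same arrays. Their time ratios are therefore given as a description, without a test.

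Berberine bridge enzyme-like proteins are flavoproteins that carry FAD in covalent linkage. Those that act as oxidases pass electrons from their substrate to oxygen, which yields hydrogen peroxide. The family is named after an alkaloid enzyme of poppy relatives, while the Arabidopsis enzymes with a known substrate act on cell wall oligosaccharides or on the alcohols from which lignin is built. Many are secreted to the cell wall, and several are known for rising in leaves under pathogen attack or wounding. AT4G20860 encodes a cellodextrin oxidase, which oxidises fragments of cellulose. Substrates of the proteins of AT1G30700 and AT2G34810 are not stated here.

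The study asked which leaf genes respond to a lack of phosphate. Rosette leaves of accession Col-5 at growth stage 6.10 were profiled on 4 Affymetrix arrays, 1 for each of no phosphate at 100 h, full nutrients at 100 h, no phosphate at 4 h and full nutrients at 4 h. Plants grew on agar with 1% sucrose in 16 h days for 21 days and were then moved to hydroponics in constant light at 24 °C, where the full solution held 0.25 mM phosphate and the other had 0 mM phosphate with 0.125 mM extra potassium sulphate. No group has a replicate, the number of plants behind an array is not given, and in whole leaves fewer cells of a type cannot be told apart from less RNA per cell.

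Title codes and labels disagree. On 3 of the 4 arrays the code carries a number other than the labelled hours. The one labelled as full nutrients at 100 h bears a code of the kind found on the no-phosphate arrays. Which is right could not be settled, so times and solutions are given as labelled. The time ratios in full nutrients, the counts over both solutions and the additive fit cannot be had without the array labelled full nutrients at 100 h. The time ratios without phosphate and the phosphate ratios at 4 h do not use it. Leaf identity was checked on 4 measured leaf genes of 10 listed: RCA, which encodes Rubisco activase, lay between 4586 and 7395 on the 4 arrays. Of the 5 leaf probe sets 3 were at least 2-fold higher at 100 h without phosphate (LHCB4.3 4.85-fold and PSBW 4.67-fold on 1 of its 2 probe sets, for photosystem II proteins, and PSAN 2.32-fold, for one of photosystem I), with a median log2 ratio of 1.21. In full nutrients 0 were called, with a median of 0.54, and at 4 h PSBW was 3.56-fold lower without phosphate on the same probe set. On its other probe set PSBW was 1.71-fold higher at 100 h without phosphate and 1.35-fold lower without phosphate at 4 h, neither called. The part of the leaf genes in the members' results was not tested. By contrast, none of the 9 root and 5 flower markers listed has a single-gene probe set. None of the 24 listed phosphate starvation genes has one either, so the response to the missing phosphate could not be checked on them. Technical measures moved with the solution. The scanner background was 69.9 without phosphate and 55.2 with full nutrients at 100 h, and 56.9 and 49.7 at 4 h in the same order. The 9 spike-in probe sets read the BioB, BioC, BioDn and CreX hybridization controls. Their mean log2 ratios, no phosphate over full nutrients, were -1.06 ± 0.24 at 100 h and -0.51 ± 0.12 at 4 h (SD, n = 9). Whether these controls follow RNA amount or labelling was not tested. The 3' to 5' signal ratio of GAPDH, a measure of RNA and labelling quality, was 2.12 against 4.52 at 100 h and 2.61 against 4.07 at 4 h.

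All 3 genes had their highest signals at 4 h and lower signals at 100 h in the solutions as labelled. AT1G30700 and AT4G20860 were brightest with full nutrients at 4 h, and AT2G34810 without phosphate at 4 h. At 100 h the probe sets of AT1G30700 and AT4G20860 read 17.5 or lower. Some of these values lay beneath the lowest intensities that the arrays can order, while AT2G34810 stayed well above those intensities. Values are linear intensities as deposited. The 4 arrays have 30th percentiles that average 7.25; this is taken as a floor, and values beneath it have no order among themselves.

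AT1G30700 was read by 2 probe sets. The first, 14015_s_at, had an intensity of 15.5 without phosphate and 11.7 with full nutrients at 100 h, and of 110.3 without phosphate and 260.5 with full nutrients at 4 h. The second, 14016_s_at, had 14.0 and 5.6 at 100 h, and 71.2 and 160.1 at 4 h, in the same order. On both, the 4 h arrays stood above the 100 h arrays, and the array with full nutrients at 100 h was the lowest of all. The suffix of these names marks probes that may match several similar transcripts, so related genes may add to the signal.

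AT2G34810, with the single probe set 20096_at, had an intensity of 68.1 without phosphate and 45.2 with full nutrients at 100 h, and of 523.8 without phosphate and 286.1 with full nutrients at 4 h. It was the only one of the 3 genes with the higher value without phosphate at both times. No array put it near the floor: it lay above 64.6% of the analysed probe sets on its dimmest array and above 93.6% on its brightest.

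AT4G20860, the cellodextrin oxidase gene, was again read by 2 probe sets. One of them, 13908_s_at, carries the same suffix as those of AT1G30700, so related genes may add to its signal. 13908_s_at had 1.1 without phosphate and 2.1 with full nutrients at 100 h, both under the floor, and 57.7 without phosphate and 133.5 with full nutrients at 4 h. 18597_at had 5.9, under the floor, without phosphate and 17.5 with full nutrients at 100 h, and 49.1 and 187.3 at 4 h in the same order. Both placed full nutrients at 4 h highest. They parted at 100 h with full nutrients, where 18597_at still gave a signal above the floor. The values nearest the floor among all members were 5.9 below it and 11.7 above it.

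**Figure D1:**
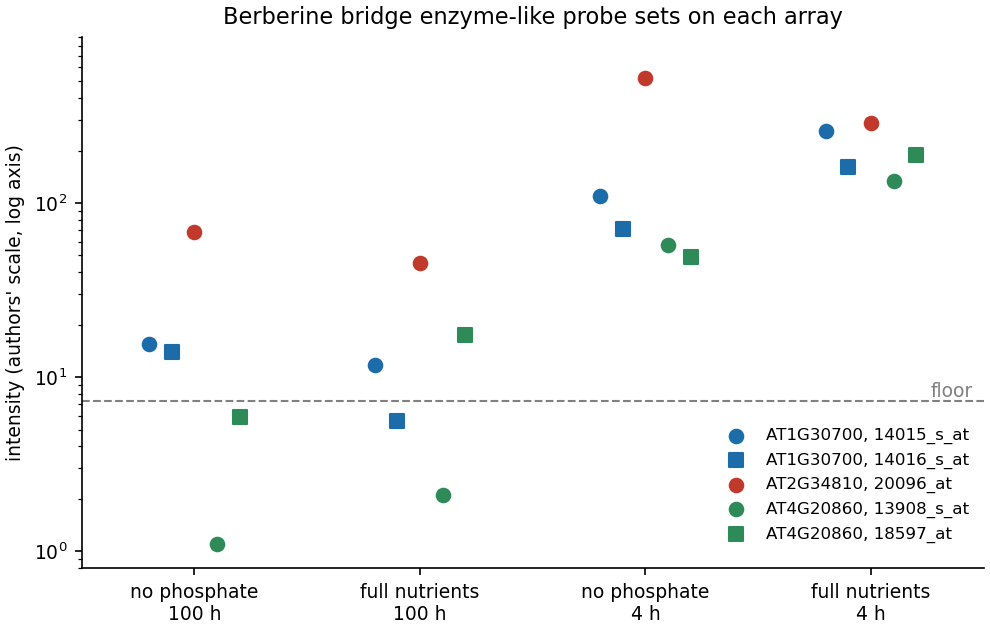
Intensity of the 5 probe sets of AT1G30700, AT2G34810 and AT4G20860 on each of the 4 arrays, on a log axis, with 1 point per probe set and array and no error bars because no group has a replicate. The dashed line is the floor of 7.25; at 4 h every point lies above it, and at 100 h 3 probe sets have a point beneath it on at least 1 array.

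Signal of all 3 genes was lower at 100 h than at 4 h in either solution, by 5.09-fold or more. A difference was called if it reached 2-fold and the higher intensity was at least 22.45, the average of the 4 array medians. Without phosphate, all 5 member probe sets were lower at 100 h than at 4 h, where 17.4% of the 4534 probe sets tested were called lower. With full nutrients all 5 were lower too, where 12.7% of 4516 were. The 5 were thus lower in both solutions, as were 8.13% of the 4294 tested in both. These contrasts chose the genes, and nothing is read from the shares.

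In full nutrients AT1G30700 fell 22.3-fold on 14015_s_at and at least 22.1-fold on 14016_s_at, with log2 ratios of -4.48 and -4.46. The ratio of 14015_s_at was the sixth lowest of all 4516, and that of 14016_s_at is a bound set by the floor; with no floor it was -4.84. Without phosphate its log2 ratios were -2.83 (7.12-fold lower) and -2.35 (5.09-fold lower). The smaller fall without phosphate went with a lower starting value at 4 h, while the 100 h values of 15.5 and 14.0 without phosphate lay above the 11.7 and 5.6 with full nutrients.

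AT4G20860 fell at least 18.4-fold on 13908_s_at and 10.7-fold on 18597_at in full nutrients (log2 ratios of -4.20 and -3.42). Without phosphate it fell at least 7.96-fold and at least 6.77-fold (-2.99 and -2.76). The bounds arise because 1 of the arrays compared was at the floor. The size of the fall depends on the floor: with none, 13908_s_at had -5.99 in full nutrients and -5.71 without phosphate. A higher floor of 17.3, from the 45th percentiles, gave it -2.95 and -1.74, gave 18597_at -1.50 without phosphate, and gave AT1G30700 -3.91 and -3.21 in full nutrients.

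AT2G34810 fell 7.69-fold without phosphate and 6.33-fold in full nutrients (log2 ratios of -2.94 and -2.66). The 2 ratios differed by 0.28, which is under the measurement SD of a single ratio. That SD, taken from how far probe sets for 1 gene disagree in their ratio across 89 other genes, was 0.54 without phosphate and 0.48 in full nutrients. It covers error on the array, not the spread between plants. In the additive fit the members' log2 differences for time were -3.65 and -3.41 for AT1G30700, -2.80 for AT2G34810, and -3.60 and -3.09 for AT4G20860.

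**Figure D2:**
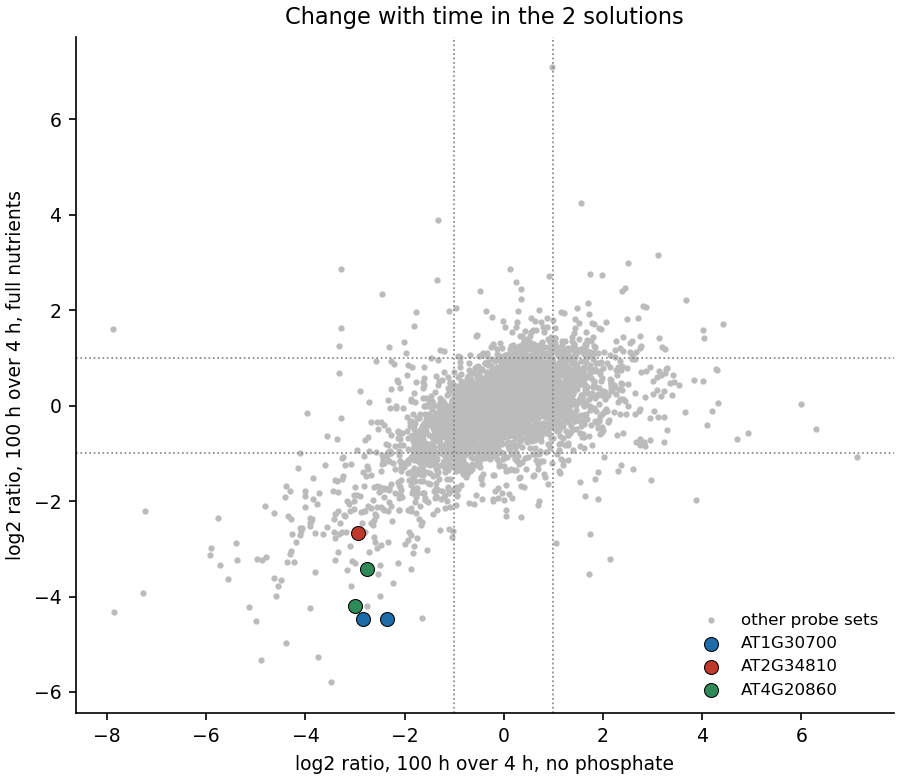
Log2 ratio of 100 h over 4 h without phosphate (x axis) and with full nutrients (y axis) for each of the 4294 probe sets tested in both, with the 5 member probe sets in colour and 2-fold marked by dotted lines. The members lie in the lower left, between -2.35 and -2.99 on the x axis and between -2.66 and -4.48 on the y axis.

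At 4 h after nutrient removal, AT1G30700 and AT4G20860 had lower signal without phosphate than with full nutrients, and AT2G34810 had higher signal that did not reach 2-fold. AT1G30700 had log2 ratios of -1.24 (2.36-fold lower) and -1.17 (2.25-fold lower) on its probe sets. AT4G20860 had -1.21 (2.31-fold lower) on 13908_s_at and -1.93 (3.81-fold lower) on 18597_at. AT2G34810 had 0.87 (1.83-fold), the opposite direction from the other 2 genes.

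By the size rule 4 of the 5 member probe sets were called lower without phosphate at 4 h, where 6.65% of 4478 were called lower. The array with full nutrients at 4 h also enters the time ratio that chose the genes, so the count is not independent of the choice. The measurement SD at this time was 0.38. The probe sets of AT1G30700 differed by 0.071 and those of AT4G20860 by 0.72, against an SD of 0.53 for such a difference. Under scaling to the spike-in probe sets, which put the median of all ratios at 0.23, AT1G30700 had -0.73 and -0.65 and 13908_s_at had -0.70, all under 2-fold. With that scaling 18597_at kept a call with -1.42 and AT2G34810 was called higher with 1.39. The part of the solution-related technical measures in these ratios was not tested.

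At 100 h the phosphate ratios of the members were small or rested on dim signals. The rule could test only AT2G34810, at a log2 ratio of 0.59 (1.51-fold higher without phosphate), which was not called, where 10.1% of 4331 probe sets were called in either direction. The measurement SD was 0.42. The other probe sets did not reach the level on either 100 h array: AT1G30700 had 0.41 on 14015_s_at and at least 0.95 on 14016_s_at, and AT4G20860 had at most -1.27 on 18597_at, while 13908_s_at was at the floor on both. Scaled to the spike-in probe sets, which put the median of all ratios at 0.78, AT2G34810 had 1.65 and 14015_s_at of AT1G30700 had 1.47, both called higher.

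With the array of full nutrients at 4 h as the control in place of the doubtful one, no phosphate at 100 h was lower for all 5 probe sets. AT1G30700 then had log2 ratios of -4.07 and -3.52, AT2G34810 of -2.07, and AT4G20860 of at least 18.4-fold and at least 25.8-fold lower. That comparison joins the difference in time with the difference in phosphate. The array with full nutrients at 4 h also enters the time ratio that chose the genes, so lower values were all but given by the choice. Over all probe sets 1139 were called in either direction, and nothing is read from the count of members.

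Over both times limma's additive fit, a linear model with variances shared across probe sets, called no probe set for phosphate: 0 of 4756, or 0%, passed an adjusted p of 0.05, with 89 at an unadjusted p under 0.05. 18597_at of AT4G20860 had a log2 difference of -1.60 ± 0.36 (SE, n = 4 arrays, limma unadjusted p = 0.0060, adjusted p = 0.999). It was lower without phosphate at both times, but its 100 h intensities of 5.9 and 17.5 were too dim for a call. Under a floor of 17.3 its log2 ratio at 100 h was -0.0145, so the lower signal at 100 h was lost. Its difference over both times was then -0.97. That difference was -0.96 with spike-in scaling, -1.63 with quantile normalization and -1.75 with no floor. 13908_s_at, for the same gene, had -0.61 ± 0.42, from the 4 h arrays alone because both 100 h arrays were at the floor. AT2G34810 had 0.73 ± 0.33 and was higher without phosphate at both times, and AT1G30700 had -0.42 ± 0.49 and -0.11 ± 0.57 (SE, n = 4 arrays, limma adjusted p = 0.999 for each). The fit has 1 residual degree of freedom, which holds the disagreement between the times.

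**Figure D3:**
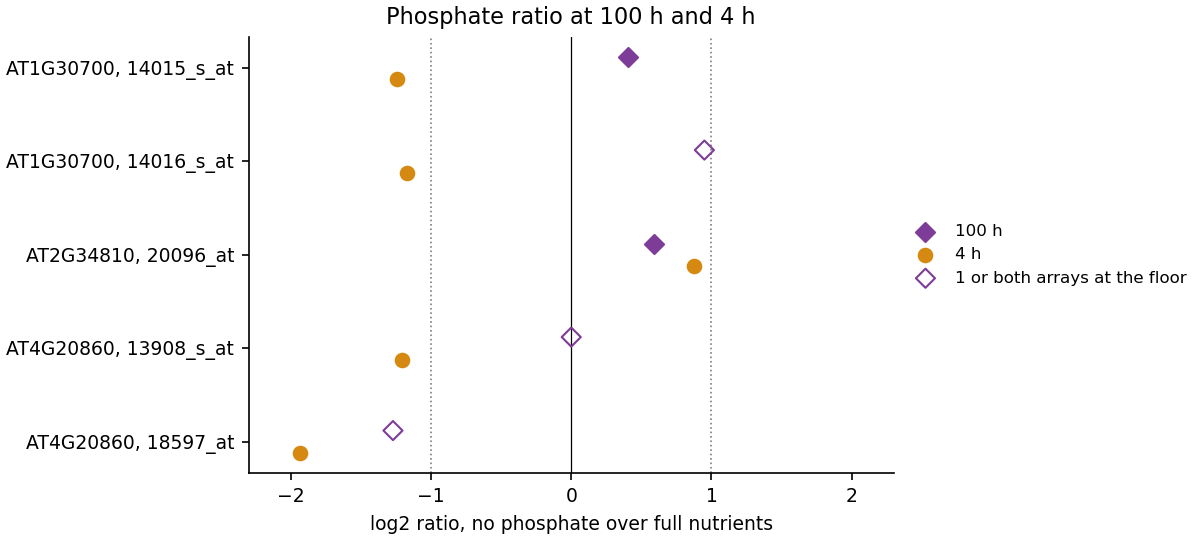
Log2 ratio of no phosphate over full nutrients for each member probe set at 100 h (diamonds) and 4 h (circles), with 2-fold marked by dotted lines; hollow symbols rest on 1 or both arrays at the floor. At 4 h AT1G30700 and AT4G20860 lie between -1.93 and -1.17 and AT2G34810 at 0.87; at 100 h the values run from -1.27 to 0.95.

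Most of the family could not be read on these arrays. Of 27 family loci, 12 have a single-gene probe set, among them the 3 members and 9 others with 12 probe sets. Of those 12 probe sets, 9 stayed at 13.6 or lower on all 4 arrays, under the level of 22.45. They include all probe sets of AT1G11770, AT1G30710, AT1G30740, AT1G30760, AT4G20800 and AT5G44440, and 3 of the 4 of AT4G20820. AT1G11770 is one of the genes known to encode an oligogalacturonide oxidase, which acts on pectin fragments. AT1G30760 encodes an enzyme that oxidises the alcohols from which lignin is built. The remaining 15 loci are not analysed here.

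The other 3 family genes that reached the level did not all share the members' fall. AT4G20840, another oligogalacturonide oxidase gene, had 42.8 without phosphate and 41.9 with full nutrients at 100 h, and 21.2 and 35.5 at 4 h in the same order. Its signal was thus no lower at 100 h: the log2 ratio for time was 1.01 without phosphate, just past 2-fold higher, and 0.24 in full nutrients. AT4G20820 had 207.9 and 233.9 at 100 h and 150.7 and 230.4 at 4 h on 13622_i_at, and its time ratios of 0.46 and 0.02 were under 2-fold, while its other probe sets were dim. AT5G44380 resembled the members in direction, with 2.4 and 1.1 at 100 h, both under the floor, and 13.3 and 27.6 at 4 h. It was at least 3.81-fold lower at 100 h in full nutrients, and at 4 h its log2 phosphate ratio was -1.05, called lower.

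The members sit beside relatives in the genome. Among the 20 nearest protein-coding genes, by gene order in RefSeq's TAIR10.1 table, AT1G30700 on chromosome 1 has 5 family genes, of which 3 are measured (AT1G30710, its direct neighbour, AT1G30740 and AT1G30760). AT4G20860 on chromosome 4 has 4, of which 3 are measured (AT4G20800, AT4G20820 and AT4G20840). AT2G34810 on chromosome 2 has 1, its direct neighbour AT2G34790, which has no single-gene probe set. The measured neighbours of AT1G30700 were dim, at 13.6 or lower on all arrays, as was AT4G20800, so a fall could not be read in them. The neighbours that could be read, AT4G20820 (13622_i_at) and AT4G20840, did not show the members' fall. Their log2 time ratios were above 0 in both solutions. The other probe sets of AT4G20820 read 13.2 or lower on all arrays, so the reading of that gene rests on 13622_i_at alone. Whether 13622_i_at reads only that gene was not tested.

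**Figure D4:**
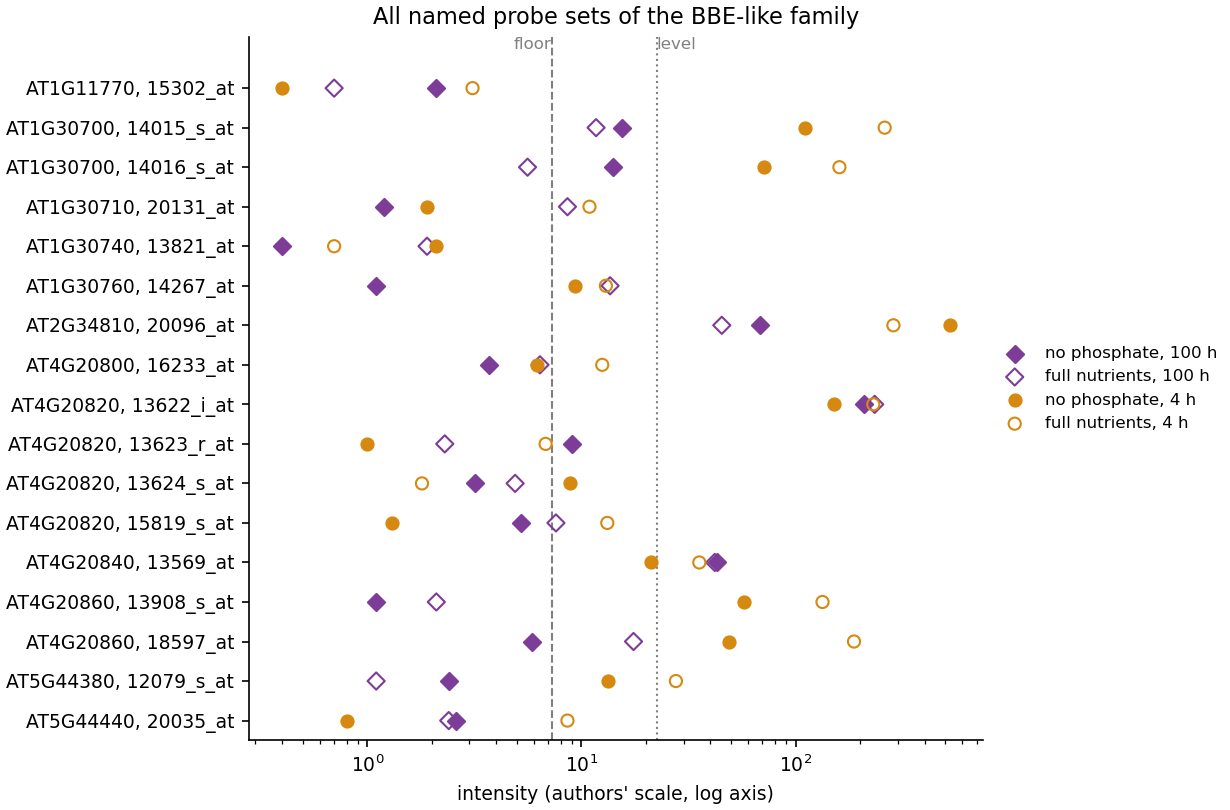
Intensity on a log axis for every named probe set of the berberine bridge enzyme-like family, with diamonds for 100 h, circles for 4 h, filled symbols for no phosphate and hollow ones for full nutrients; the dashed line is the floor of 7.25 and the dotted line the level of 22.45. Members show circles far to the right of diamonds, whereas the symbols of AT4G20820 (13622_i_at) and AT4G20840 lie close together.

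Genes listed for hydrogen peroxide removal, wall polysaccharides, pathogen response and jasmonate were few on the arrays. Whether the products of those measured act where these oxidases do was not tested. Of 24 listed genes that remove hydrogen peroxide or superoxide 4 were measured, with 5 probe sets. Without phosphate 2 of the 5 were called higher at 100 h and 2 lower, with a median log2 ratio of 0.96, and with full nutrients 0 were called higher and 1 lower, with a median of 0.14. Of all probe sets tested 15.3% were higher and 17.4% lower without phosphate, and 6.44% were higher and 12.7% lower in full nutrients. The median of all probe sets tested was -0.02 in either solution. TAPX, the thylakoid ascorbate peroxidase gene, had time ratios of 2.13 and 2.18 without phosphate on its probe sets and of 0.81 and 0.39 in full nutrients. GR1, for a glutathione reductase, had -1.94 without phosphate and -1.13 in full nutrients, and SAPX, for a stromal ascorbate peroxidase, had -1.88 and 0.14.

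Of 29 listed genes that cut or demethylesterify wall polysaccharides, 5 were named on the array and 4 reached the level, with 7 probe sets. At 100 h 3 of these were called higher and 2 lower without phosphate, and 2 higher and 2 lower in full nutrients, with medians of 0.63 and -0.52. With 7 and 5 probe sets these counts are too small to set either list apart from those shares of all probe sets. PMEPCRB, a pectin methylesterase gene, fell to 2.4 without phosphate and 9.2 with full nutrients at 100 h on 19267_s_at, against 60.7 and 88.3 at 4 h. Its other probe set was called lower in both solutions too. AT4G24780, a pectate lyase-like gene, moved the other way, with log2 ratios of 1.80 and 1.90 without phosphate and 1.45 and 1.11 in full nutrients. Of 28 listed genes of pathogen and elicitor response, only WRKY53, for a transcription factor of senescence and defence, was measured; it was 3.09-fold lower at 100 h without phosphate and had a log2 ratio of -1.41 in full nutrients. None of the 28 listed jasmonate genes had a single-gene probe set.

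The closest patterns among the members joined AT1G30700 with 1 probe set of AT4G20860. Likeness was the Euclidean distance between log2 profiles, each probe set minus its own mean, over the 4 arrays. 14015_s_at of AT1G30700 lay 0.29 from 13908_s_at of AT4G20860, closer than to its own gene's second probe set (0.46) and closer than to any of 1995 other named candidates. The value of 13908_s_at was set to the floor on both 100 h arrays, and the distance of 0.29 depends on that. With no floor its log2 time ratios were -5.71 without phosphate and -5.99 in full nutrients. Those of 14015_s_at were -2.83 and -4.48. Likeness with no floor was not computed. The second probe set of AT4G20860, 18597_at, lay 1.40 from 14015_s_at and 1.69 from 14016_s_at. From AT2G34810 to the nearest member probe set, 14016_s_at, the distance was 1.58, and 62 of the 1995 candidates were nearer; its distances to the members ran up to 2.40. Without the array labelled full nutrients at 100 h, AT1G30700 and AT4G20860 lay between 0.12 and 0.84 apart, and AT2G34810 lay between 1.48 and 2.22 from them. As time ratios chose the genes, a shared fall is built into these distances.

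The 5 candidates nearest to each member probe set named 15 genes in all. AT2G17740 was among the 5 for 4 member probe sets, all but that of AT2G34810, with 9.9 and 13.2 at 100 h and 57.4 and 152.4 at 4 h (no phosphate, then full nutrients, at each time). PMEPCRB, AT4G18950, which encodes a protein kinase, and AT4G01700, a chitinase gene, were each among the 5 for 3 member probe sets. AT4G22470 was the closest of all, at 0.23 from 18597_at of AT4G20860, with 5.6 and 15.2 at 100 h and 40.9 and 153.6 at 4 h. The others near that probe set were GH3.3, for an auxin-conjugating enzyme, at 0.82, AT2G38870, for a small protease inhibitor, at 0.88, and BGLU28, for a beta-glucosidase, at 1.09. AT2G38240, for a dioxygenase that hydroxylates jasmonate, was near 14015_s_at at 1.28, and the receptor kinase gene AT5G25930 near 14016_s_at at 1.25.

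The 5 genes near AT2G34810 were shared with no other member. They were SGP1, for a small GTP-binding protein, at 0.70, AT1G03220, for an aspartyl protease, at 0.79, the protein kinase gene AT4G32250 at 0.88, AT2G46140 at 0.89 and AT4G33540 at 0.90. SGP1 had 3.3 without phosphate and 2.8 with full nutrients at 100 h, and 43.0 and 35.9 at 4 h. Under the floor of 17.3, 1 of these 5 stayed among the nearest to AT2G34810. For the other member probe sets 3 or 4 of 5 stayed, so the neighbours of AT2G34810 depend most on the floor. Without the array labelled full nutrients at 100 h, 0 of 5 stayed for AT2G34810, 2 for 14015_s_at and 13908_s_at each, and 4 for 14016_s_at and 18597_at each.

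**Figure D5:**
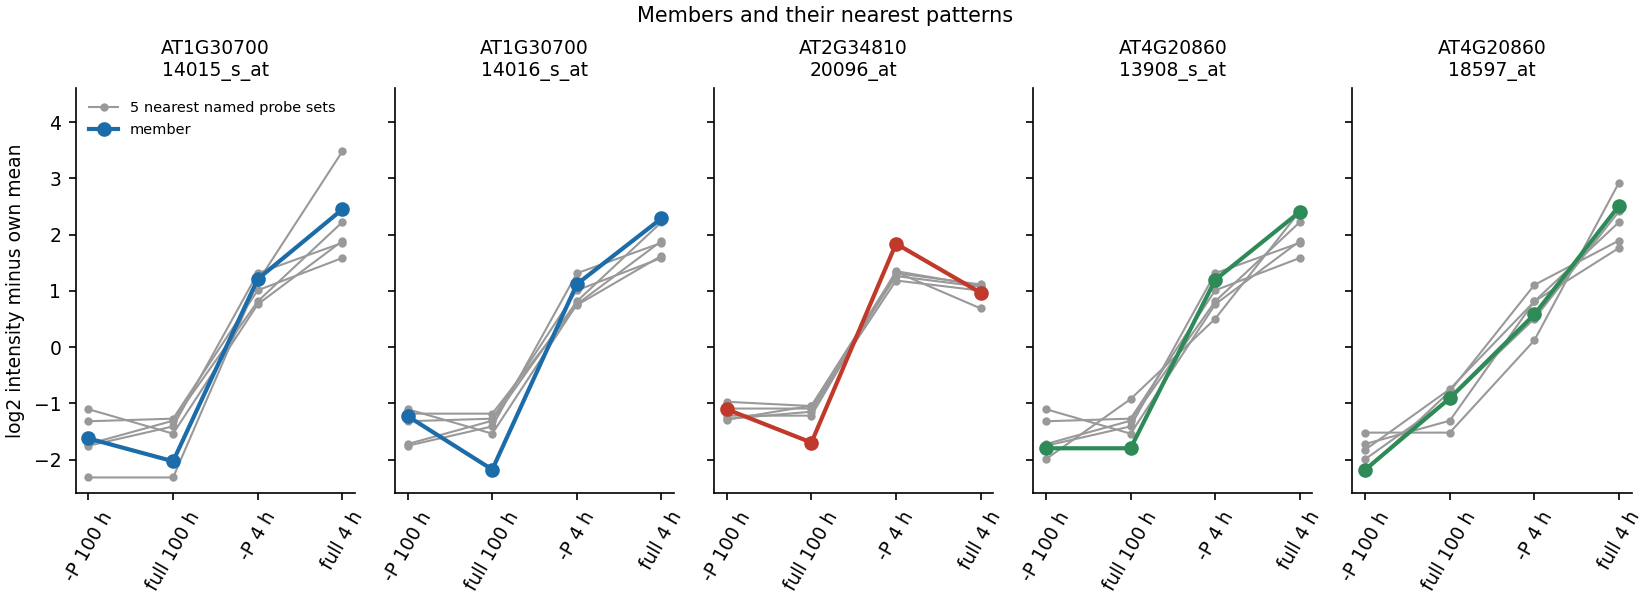
Log2 intensity minus the probe set's own mean (values under 7.25 set to it) on the 4 arrays, for each member probe set (coloured) and its 5 nearest named probe sets (grey); lines only join the values of 1 probe set. AT1G30700 and AT4G20860 peak with full nutrients at 4 h and AT2G34810 peaks without phosphate at 4 h.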

How the data were processed

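The deposited values are linear intensities, 1 per probe set and array, from 4 Affymetrix arrays of Arabidopsis rosette leaves, and how the authors computed them is not given in the sources used here. Each array had a mean of 100.2 after 2% of the values were trimmed at each end, a common scale, and the values were used as they stood. Arrays give no read depth, and their number limits the precision. Solution followed the treatment label and time the age label.

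Of 8297 probe sets, 50 controls were left out. The platform annotation named 1 gene for 3794 probe sets and several for 70, and 4383 were not listed. RefSeq's TAIR10.1 table, used for names and gene order only, matched 3784 to loci.

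Intensities under 7.25 were set to it before log2 was taken. Pairs of arrays were compared by size without a test. The additive model of solution and time was fitted with limma 3.58.1 (R 4.3.3) over 4756 probe sets whose highest array reached 22.45, two-sided with Benjamini-Hochberg adjustment. It was also run on simulated data with large additive time changes and no phosphate change. That run does not cover smaller changes or phosphate differences that disagree between the times. Nothing says that the arrays hold separate cultures, so the p-values cover just the spread among these 4 arrays, which may be technical.

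Members, gene lists and rules were chosen with earlier results of these data known. Named were all member, family and leaf probe sets, the 2 highest and 2 lowest probe sets for time in each other list, and the 5 nearest patterns of each member. Alternatives were another floor, no floor, quantile normalization, spike-in scaling, no filter on level, a 3-fold rule and another control at 100 h. Distances between patterns without the array labelled full nutrients at 100 h were added after seeing the data.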

Additional observations from a re-analysis of the deposited data

Results flagged for a closer look

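AT1G30700 had log2 phosphate ratios of opposite sign at the 2 times on both probe sets. On 14015_s_at the ratio of no phosphate over full nutrients was 0.41 at 100 h and -1.24 at 4 h, a difference of 1.65. On 14016_s_at it was at least 0.95 at 100 h, where the full-nutrient array was under the floor, and -1.17 at 4 h, a difference of at least 2.12. With 1 array per group the difference was not tested. The 100 h values lay between 5.6 and 15.5, under the level of 22.45. Under a floor of 17.3 the ratio at 100 h was 0 on both probe sets, so the opposite sign was lost.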

How the results depend on the processing

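No paired analysis was possible because each group has 1 array, and for the same reason no replicate could be left out. All 5 member probe sets were called lower with time in both solutions under every alternative run for those comparisons. Of 105 log2 ratios of members recomputed, 81 moved by less than the measurement SD and 24 by more. No ratio called in the reported setting changed sign. The 81 include 20 from the setting with no filter, which changes calls but cannot change a ratio. They also include ratios with no array under the floor, which cannot change when the floor is taken away. The count therefore overstates how stable the ratios are. At 100 h, where neither was called, the phosphate ratios of AT2G34810 and 14015_s_at were called higher with spike-in scaling (1.65 and 1.47) and lower with the other control (-2.07 and -4.07). For phosphate at 4 h, called members numbered 4, all lower. Spike-in scaling called 2, 18597_at lower and AT2G34810 higher, and a 3-fold rule called 1, 18597_at lower. At 100 h called members numbered 0, against 2 with spike-in scaling, both higher. No filter called 1, 18597_at lower, and the other control called 5, all lower. The phosphate difference over both times changed sign for AT1G30700: spike-in scaling gave 0.37 and 0.43, and no floor gave 0.076 on 14016_s_at. Limma called 0 probe sets for phosphate under each alternative, with 89 to 677 at an unadjusted p under 0.05; the members' adjusted p ran from 0.281 to 1. For time it called 96, against 365 with the floor at the 45th percentile, 4 with no floor, 27 with spike-in scaling, and 0 with quantile normalization or no filter. Over all probe sets, a 3-fold rule called 732 for time without phosphate, 372 for time in full nutrients, 135 for phosphate at 4 h and 165 at 100 h, against 1485, 863, 397 and 439. Spike-in scaling called 845 for phosphate at 4 h and 2815 at 100 h, no filter 547 and 654, and the other control 1139 at 100 h. These counts are in either direction. Shares of the probe sets tested were not computed for the alternatives, so nothing is read from the member counts under them. Causes were not tested. Dim signal limits the phosphate ratios of AT1G30700 and AT4G20860 at 100 h.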
